A study of Danio rerio with 3 samples.

Results

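The regions described here are wide H3K27me3 peaks that stand alone and lie away from H3K27ac in the posterior trunk of the zebrafish embryo. A region is a run of touching peak intervals of 1 library, without the mitochondrial genome. Members are at least 800 bp wide, with more than 3000 bp to the next H3K27me3 region and more than 5000 bp to H3K27ac in both replicates. Of 17121 H3K27me3 regions, 610 (3.56%) met the whole rule. Taken singly, the width held for 18.1% of all H3K27me3 regions, the isolation for 59.2% and the distance from H3K27ac for 31.5%. The members were chosen by measured values, namely the width and position of the called H3K27me3 and H3K27ac regions, so their values are given as a description, without a test.

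All embryos were wild type at 16 hours post fertilisation, the tissue was posterior trunk, and the assay was CUT&RUN, in which a nuclease tethered to an antibody releases the DNA around a histone mark. There was 1 library for H3K27me3 and 2 for H3K27ac (replicates 1 and 2). The tissue holds several cell types, so a mark in fewer cells and less of the mark per cell cannot be told apart. By its title the series belongs to work on regulatory DNA of the cloaca, an opening shared by gut and urogenital tract.

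H3K27me3 is trimethylation of lysine 27 of histone H3. It is laid down by Polycomb repressive complex 2, which binds its own product and so can extend the mark along the chromatin from the place where it started, and in vertebrate embryos it lies above all on CpG-rich promoters of silent developmental genes. H3K27ac, acetylation of the same lysine, marks active promoters and enhancers, and a single histone tail cannot carry both. Long Polycomb domains such as those over hox clusters are well known. A wide and solitary H3K27me3 region is a shorter patch of the mark with unmarked chromatin on both sides, as far as peak calling shows.

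The lists held 45534 and 60427 regions in H3K27ac replicates 1 and 2. Total reads per library are unknown here. The peak caller's genome-wide background, recovered from the authors' fold and p-values, was lowest for H3K27me3 at 0.370 tags. It was 0.806 and 1.10 tags for H3K27ac replicates 1 and 2, so the H3K27me3 library was the shallowest, provided that peak calling assumed 1 genome size throughout. The tags in the 10-kb window around a summit, scaled to a span of 200 bp and divided by this background, are called the 10-kb tag density below. A value of 1 is the genome-wide level and the lowest possible. Pileup is the number of tags over a summit. Fold and -log10 q are the authors' peak values and are compared within the H3K27me3 list only. Regions are named by their danRer11 coordinates, without gene names, because no annotation on this build was used.

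The 6 widest H3K27me3 regions of the whole list were all members. The widest, on chromosome 2 from 31299347 to 31303034, measured 3688 bp, and the widest region inside a stitched domain, on chromosome 10 from 48716 to 51746, measured 3031 bp. A stitched domain is a chain of H3K27me3 regions with gaps of at most 3000 bp. Members made up 11 of the 20 widest regions and 25 of the 100 widest, against 610 of all 3105 regions of 800 bp or more. This lead depends on where a region ends. Of the 1284 wide regions in stitched domains, 414 had a neighbour less than 200 bp away, and when gaps of at most 200 bp were closed, members made up 6 of the 20 widest and the widest region of all, at 3735 bp, was not a member.

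The chromosome 2 region had 9 summits. Their pileups from left to right were 101, 176, 137, 156, 139, 142, 172, 95 and 107 tags. The first summit and those of 95 and 107 tags at the right end were lower than the summits between them, and all 9 were above 90 tags. The window held 2734 tags, a density of 148. Its nearest H3K27me3 region was 79.4 kb away, and H3K27ac regions lay 5179 bp away in replicate 1 and 5178 bp away in replicate 2, just outside the distance set by the rule. These H3K27ac regions had H3K27ac densities of 10.1 and 13.5, far above the members' medians given below. Of the 10 members with the highest density it was the only one with no other H3K27me3 region within 50 kb.

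The next widest members also held many summits each. The region on chromosome 14 from 49917635 to 49921069 measured 3435 bp, with 8 summits of 60 to 120 tags and a density of 94.3. On chromosome 13, from 30911754 to 30915110, a region of 3357 bp had 9 summits of 94 to 129 tags and a density of 105. On chromosome 16, from 26302318 to 26305626, a region of 3309 bp had 10 summits of 79 to 145 tags and a density of 121. The nearest H3K27me3 region to this last one was 5524 bp away, and 12 lay within 50 kb. The region on chromosome 5 from 23781951 to 23785152 measured 3202 bp and that on chromosome 7 from 31938566 to 31941687 measured 3122 bp, with densities of 79.2 and 154. The nearest H3K27me3 region to the one on chromosome 7 was 5315 bp away, and 2 lay within 50 kb.

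**Figure D1:**
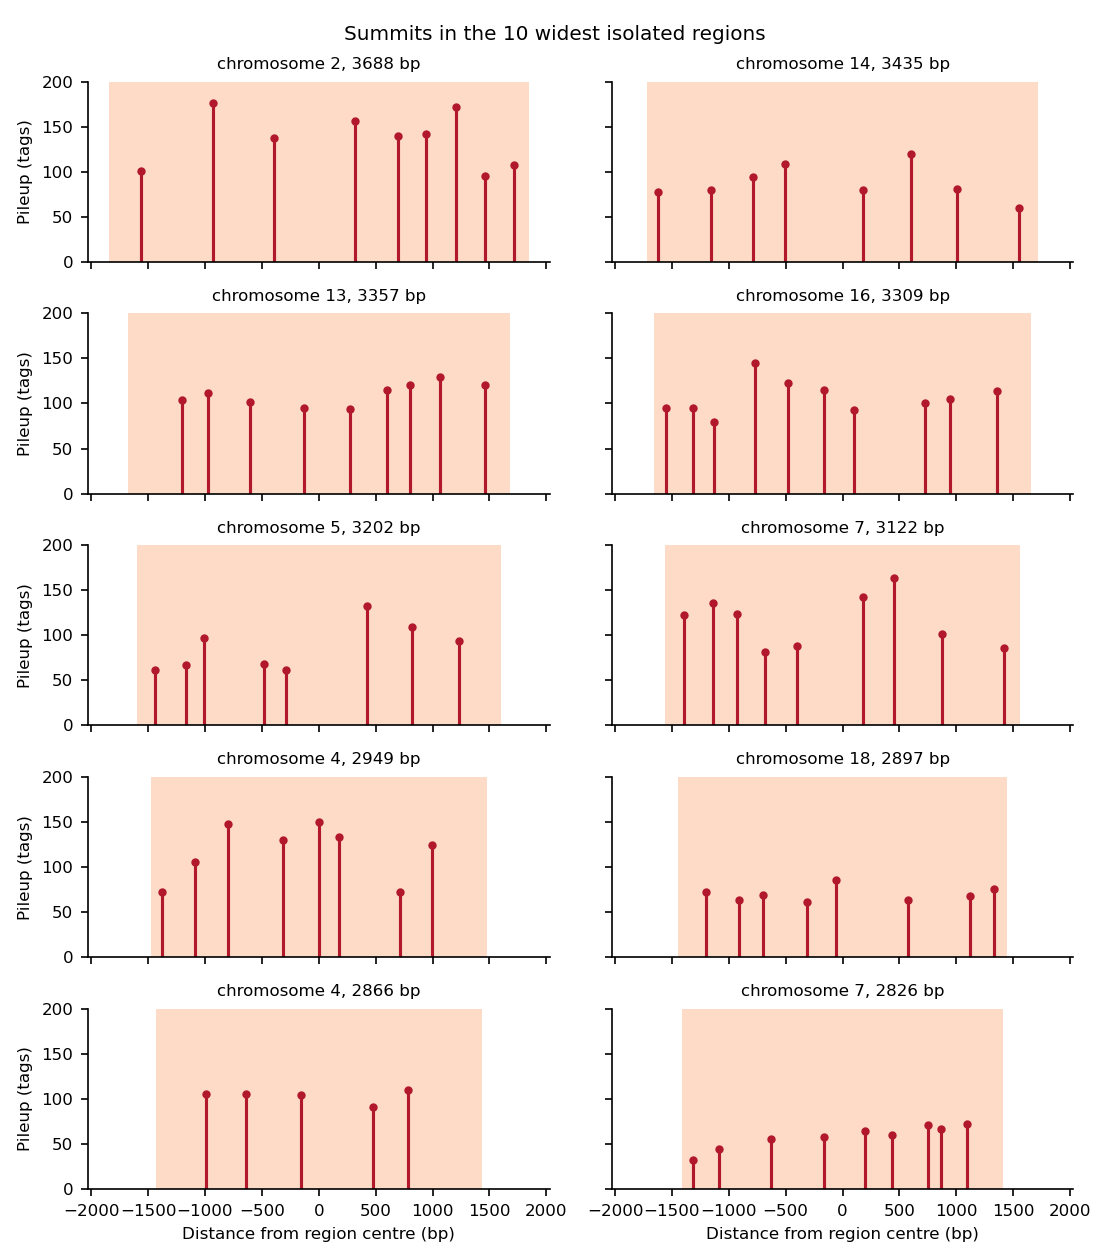
Pileup (tags, vertical axis) of every summit in the 10 widest isolated H3K27me3 regions away from H3K27ac, by distance from the region's centre (bp, horizontal axis). The shaded band is the region, each line is 1 summit, and all values come from the 1 H3K27me3 library. The chromosome 2 region reaches 176 tags, and the chromosome 7 region of 2826 bp has the lowest summits, with 32 to 72 tags.

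The other 4 of the 10 widest were 2826 to 2949 bp wide. On chromosome 4, from 25285399 to 25288264, 5 summits stood at 91 to 110 tags, and the nearest other H3K27me3 region was 203522 bp away. A second region on chromosome 4, from 17416990 to 17419938, had 8 summits of 72 to 150 tags and 7 H3K27me3 regions within 50 kb. On chromosome 18, from 7068822 to 7071718, 8 summits had 61 to 86 tags. The lowest of the group was on chromosome 7 from 52960872 to 52963697, with 9 summits of 32 to 72 tags and a density of 42.3.

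Across the 610 members the median width was 1187.5 bp, with quartiles of 988.75 and 1544.75 bp and a range of 801 to 3688 bp. The median number of summits was 3 (range 1 to 10). A single summit was present in 70 members (11.5%) and 5 or more in 88 (14.4%). In the 540 members with several summits these lay a median of 341 bp apart, and the lowest summit had a median of 70.6% of the pileup of the tallest. The tallest pileup was at the first or last summit in 160 of the 356 members with 3 or more summits (44.9%). With so few summits an end position is frequent by construction. No share for random order was computed, and no other group was measured for it. The 422 wide regions in stitched domains that also lay away from H3K27ac had a median of 3 summits as well. In the 378 of them with several summits these lay a median of 333 bp apart. The lowest summit there had a median of 74.2% of the pileup of the tallest.

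Wide isolated regions had far fewer H3K27me3 tags around them than wide regions in stitched domains. The median 10-kb tag density was 10.8 in the 610 members (quartiles 6.61 and 19.4) and 55.4 in the 422 stitched regions that also lay away from H3K27ac (quartiles 16.2 and 130). Median summit pileups were 28 and 72 tags. The quartile ranges of density overlapped only between 16.2 and 19.4. Each region's window reaches 5 kb to either side of the summit, so neighbours in a stitched domain add to its tags by construction, and this comparison follows in part from the rule.

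Without matching for width, the H3K27me3 medians of wide regions with and without H3K27ac nearby lay close together. The 1211 wide isolated regions that had H3K27ac within 5000 bp had a median density of 10.9, a pileup of 29 and a -log10 q of 12.2, against 10.8, 28 and 11.4 in the members. The members were wider, at a median of 1187.5 against 1127 bp. At 800 to 1000, 1000 to 1500, 1500 to 2000 and 2000 bp or more, their median densities were 6.35, 9.70, 17.7 and 40.2. Those of the isolated regions near H3K27ac were higher in each class, at 7.02, 10.3, 19.6 and 49.7. The 862 wide stitched regions with H3K27ac nearby had a median density of 57.2 and a pileup of 74, against 55.4 and 72 in the stitched regions without it. At equal width the order in stitched regions was mixed. From the narrowest class to the widest the median densities were 38.2, 53.5, 74.1 and 122 with H3K27ac nearby. Without it they were 37.4, 54.7, 83.3 and 103. These regions share 1 library, and no test between the groups was made.

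**Figure D2:**
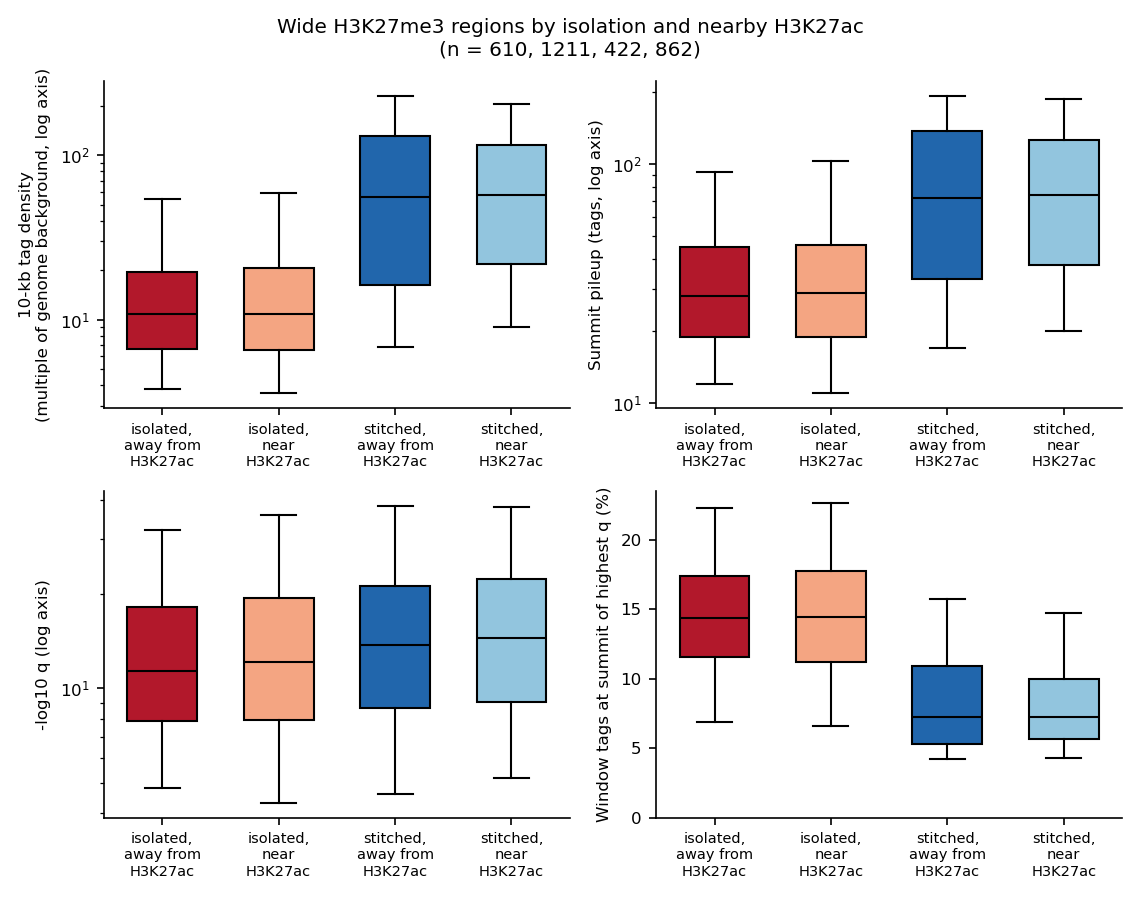
Box plots of 10-kb tag density (multiple of the genome-wide background), summit pileup (tags), -log10 q and the share of window tags at the summit of highest q (percent) for 4 groups of H3K27me3 regions of 800 bp or more. Boxes show median and quartiles and whiskers the central 90% of regions; the first 3 axes are logarithmic. Without matching for width, median density and pileup are lower in isolated than in stitched regions. They lie close together in regions away from and near H3K27ac, with median densities of 10.8, 10.9, 55.4 and 57.2 from left to right.

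Peak significance separated isolated and stitched regions far less than density did. The median -log10 q was 11.4 in members, with a range of 3.01 to 81.6, and 13.7 in stitched regions away from H3K27ac, with a range of 2.65 to 55.2. The fold ran the other way, at a median of 5.63 in members and 3.47 in the stitched regions. The caller's local background enters fold and q, and the window density sets that background, so a summit in a dense neighbourhood gets a lower fold at the same height.

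The difference in density was also seen at equal width, where neighbours in the window of a stitched region still add tags by construction. Among regions of 800 to 1000 bp the median was 6.35 in 162 members and 37.4 in 169 stitched regions away from H3K27ac. Among those of 2000 bp or more it was 40.2 in 44 members and 103 in 19 stitched regions. Within the members, density was higher in wider regions, through 9.70 in 282 regions of 1000 to 1500 bp and 17.7 in 122 of 1500 to 2000 bp. Across the 610 members, width and density had a Spearman rho of 0.61, and width and the number of summits 0.74. Both are descriptions over regions of 1 library, which are not independent. A wider region also puts more of its own tags in its window and has room for more summits, so part of both values is built in. In the stitched regions the rho of width and density was lower, at 0.21 over 422 regions, whose windows also hold tags of neighbours.

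**Figure D3:**
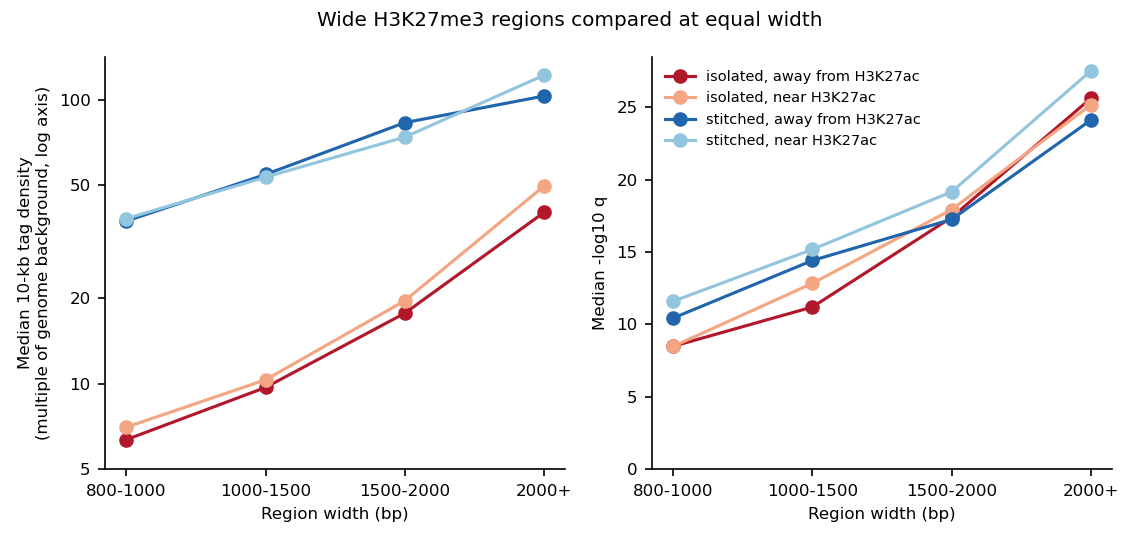
Median 10-kb tag density (left, log axis, multiple of the genome-wide background) and median -log10 q (right) in 4 classes of region width (bp). Each line is 1 of the 4 groups of H3K27me3 regions and each point a median over its regions, all from 1 library. In density the isolated groups lie below the stitched groups in every class, from 6.35 against 37.4 to 40.2 against 103, while the -log10 q of all groups rises together.

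Members held a larger share of their window tags than stitched regions did, in part because the rule keeps neighbours at a distance. At the summit with its highest q a member held a median of 14.4% of the tags of its 10-kb window, against 7.26% in stitched regions away from H3K27ac. If the mean summit height held over the whole width, with tags of 200 bp, members would hold a median of 79.9% of their window tags and those stitched regions 37.3%. This is a rough upper estimate, since troughs between summits are lower than the summits, and it exceeds 100% in some regions. By the same estimate the median was 31.0% in the 47 members with a gap of up to 5 kb to the next H3K27me3 region, and the lowest member had 17.6%. The highest share at a single summit was 28.3% in members. It was 35.5% in wide isolated regions near H3K27ac, and 23.2 and 25% in wide stitched regions away from and near H3K27ac. Among all H3K27me3 regions it reached 97.1%, but that list includes narrow regions. The minimum width of the rule itself works against so high a share at 1 point.

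Isolation by 3000 bp did not always mean a solitary place. The nearest other H3K27me3 region lay a median of 34813.5 bp away, with quartiles of 10246 and 85209 bp, yet 150 of the 610 members (24.6%) had one within 10 kb and 355 (58.2%) within 50 kb. There were 4 members, on unplaced sequences, with no other H3K27me3 region on the same sequence. Density was highest where the gap was short. It had a median of 34.4 in the 47 members with a gap of up to 5 kb, 13.1 in the 103 with 5 to 10 kb, 11.1 in the 205 with 10 to 50 kb and 8.48 in the 251 with more than 50 kb. In the first class the window can include part of the neighbours. Beyond it the window does not reach the neighbour. There the median was 13.1 (95% interval 10.1 to 16.2) at 5 to 10 kb and 8.48 (95% interval 7.46 to 9.40) above 50 kb. These intervals treat regions of the same library as independent, and the gap is itself a value that the rule used. The order of the medians is therefore a description, and no test between the classes was made. The median -log10 q had no such order over the 4 classes, at 10.2, 12.1, 12.7 and 10.6.

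**Figure D4:**
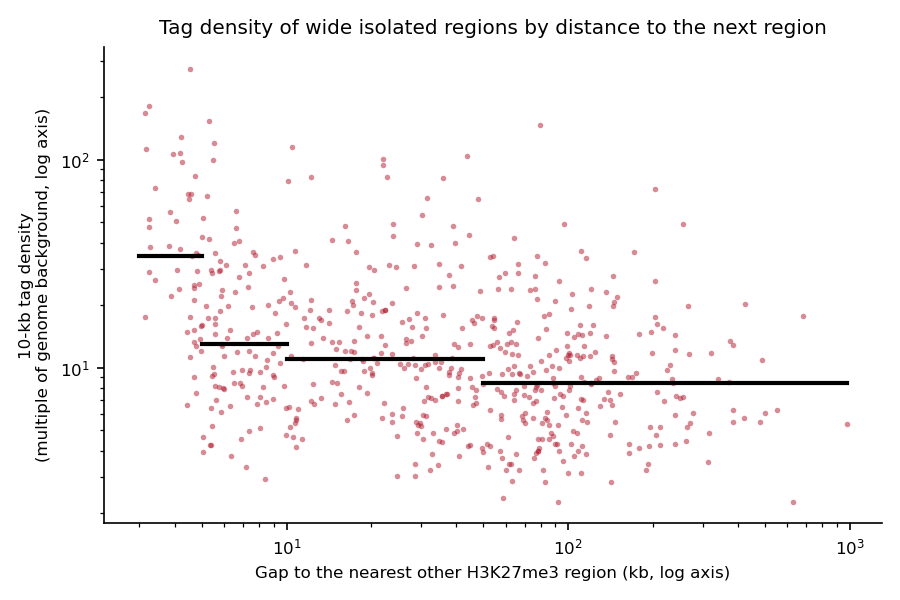
10-kb tag density (multiple of the genome-wide background, log axis) of each member against its gap to the nearest other H3K27me3 region (kb, log axis). Each point is 1 of 606 members with such a neighbour on its sequence, and the black bars are the medians of 4 classes of gap, 34.4, 13.1, 11.1 and 8.48. Most of the highest densities lie at gaps of up to 6 kb, and a few dense members lie further out.

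The members with the highest density were of both kinds. The highest value, 275, belonged to a region of 1132 bp on chromosome 24 from 4972826 to 4973957, with 4 summits of 144 to 178 tags. Its nearest H3K27me3 region was 4551 bp away and 13 lay within 50 kb, and the summit with its highest q held 3.50% of the window tags. Its fold, 1.74, was the lowest of all members. The region on chromosome 8 from 19766961 to 19768116, with a density of 182, and the region on chromosome 5 from 63508773 to 63510298, with 169, also had neighbours within 3239 and 3134 bp. By contrast the regions next in rank, on chromosomes 7 and 2, are among the widest described above, which held 63.7 and 91.8% of their window tags by the estimate from mean summit height. A density over 50 was reached by 35 members (5.74%) and a density under 5 was seen in 88 (14.4%).

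The members with the highest -log10 q were others again. Ranked by -log10 q, none of the first 10 was among the 10 widest or the 10 densest. The first, on chromosome 1 from 58724848 to 58726910, had a -log10 q of 81.6 and a fold of 8.28. Its 4 summits had 154, 82, 81 and 38 tags from left to right, in descending order across its 2063 bp. H3K27ac was far from it, 41276 bp away in both replicates. The second, on chromosome 18 from 38320482 to 38322414, had a -log10 q of 64.6 and 3 summits of 129 to 155 tags between 648 and 1133 bp from the left edge of its 1933 bp. The third, on chromosome 19 from 39276054 to 39277814, had a -log10 q of 52.1 and summits of 71, 103, 40, 52 and 44 tags. It was the most solitary of the 10, with the nearest H3K27me3 region 116 kb away and H3K27ac 70.3 kb away in replicate 1 and 45.3 kb in replicate 2.

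The other 7 of these 10 had -log10 q values of 40.2 to 51.5 and lay on chromosomes 2, 17, 18, 7, 21, 3 and 20. The tallest summit of the chromosome 2 region from 53499683 to 53501262 stood at 98 tags and its lowest at 27. On chromosome 18, from 13162106 to 13164218, these were 105 and 30 tags. On chromosome 20, from 47420883 to 47422823, only 2 summits of 75 and 86 tags were called in 1941 bp. The region on chromosome 21 from 19083891 to 19085522 was the exception in its setting, with a neighbour at 4708 bp, 21 H3K27me3 regions within 50 kb and a density of 83.8, against 24.0 to 65.5 in the other 9.

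Wide isolated and wide stitched regions lay away from H3K27ac in shares whose intervals overlapped. Of the 1821 wide isolated regions 610 (33.5%, exact 95% interval 31.3 to 35.7%) lay more than 5000 bp from H3K27ac in both replicates, and of the 1284 wide stitched regions 422 (32.9%, exact 95% interval 30.3 to 35.5%), against 31.5% of all H3K27me3 regions. Intervals cover counting error only. Set against each replicate alone, the shares of isolated regions away from H3K27ac were 53.2% for replicate 1 and 44.3% for replicate 2, and of stitched regions 51.2 and 43.9%. The means were 48.8 ± 6.29% and 47.6 ± 5.18% (SD, n = 2 each). Both groups were set against the same libraries, and within a replicate the isolated share was higher by 1.97 points in replicate 1 and by 0.391 points in replicate 2. The number of members rested on the deeper H3K27ac replicate more than on the other: there were 969 without replicate 2, 807 without replicate 1 and 1260 where only H3K27ac found in both replicates counted.

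Close to the regions the pattern was different. H3K27ac overlapped 671 of the 1821 wide isolated regions (36.8%, exact 95% interval 34.6 to 39.1%) and 293 of the 1284 wide stitched regions (22.8%, exact 95% interval 20.5 to 25.2%), against 27.9% of all H3K27me3 regions. Without overlap, H3K27ac lay within 1000 bp of 168 of the 1284 stitched (13.1%) and 124 of the 1821 isolated regions (6.81%). Between 1000 and 5000 bp it lay from 401 (31.2%) and 416 (22.8%). Over all H3K27me3 regions these shares were 11.7 and 29.0%. Each is a share of the whole group, so a higher overlap leaves less for the other classes. The order was not particular to wide regions. In narrow regions the overlap was 30.4% of 8319 isolated and 22.5% of 5697 stitched ones. Without overlap, H3K27ac lay within 1000 bp of 14.6% of narrow stitched and 10.5% of narrow isolated regions, again as shares of the whole group. These shares were not recomputed with H3K27me3 gaps of at most 200 bp closed. The overlap was 21.0 and 28.9% in replicates 1 and 2 for isolated regions and 13.0 and 17.4% for stitched regions, higher for isolated regions in each replicate; the means were 24.96 ± 5.63% and 15.2 ± 3.14% (SD, n = 2 each). Regions of 1000 to 1500 bp gave 38.2% against 24.9%. Among wide regions of 2000 bp or more the shares were 30.5 and 24.3%, with overlapping exact 95% intervals of 22.4 to 39.7% and 14.8 to 36.0%.

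Just beyond the distance set by the rule, the frequency of H3K27ac around members lay within the range seen further out, to 100 kb. The nearest H3K27ac region of either replicate lay a median of 11419.5 bp from a member, with quartiles of 7588.75 and 18373.2 bp, and 11602 bp from a stitched region of the same kind. From 5 to 100 kb on either side of the members there were 0.312 H3K27ac summits per 10 kb in replicate 1 and 0.415 in replicate 2, with 0.292 and 0.384 in the first 5 kb of that range. Single steps of 5 kb ran from 0.261 to 0.346 in replicate 1 and from 0.344 to 0.444 in replicate 2. The rule measures to the edge of an H3K27ac region, so it also thins summits at the start of this range. Around the stitched regions the first 5 kb of the range held 0.318 and 0.419, and the values from 5 to 100 kb were 0.339 and 0.443. The members' value minus that of stitched regions was -0.0274 in replicate 1 and -0.0282 in replicate 2, of the same sign in both; no test was made of these 2 values. Nearly all members had H3K27ac further out: 17 members (2.79%, exact 95% interval 1.63 to 4.42%) had no H3K27ac within 50 kb, a figure that includes 2 on sequences that hold no H3K27ac region. This was alike in the other groups away from H3K27ac, at 3.79% of wide stitched regions and 4.37% of narrow isolated regions.

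**Figure D5:**
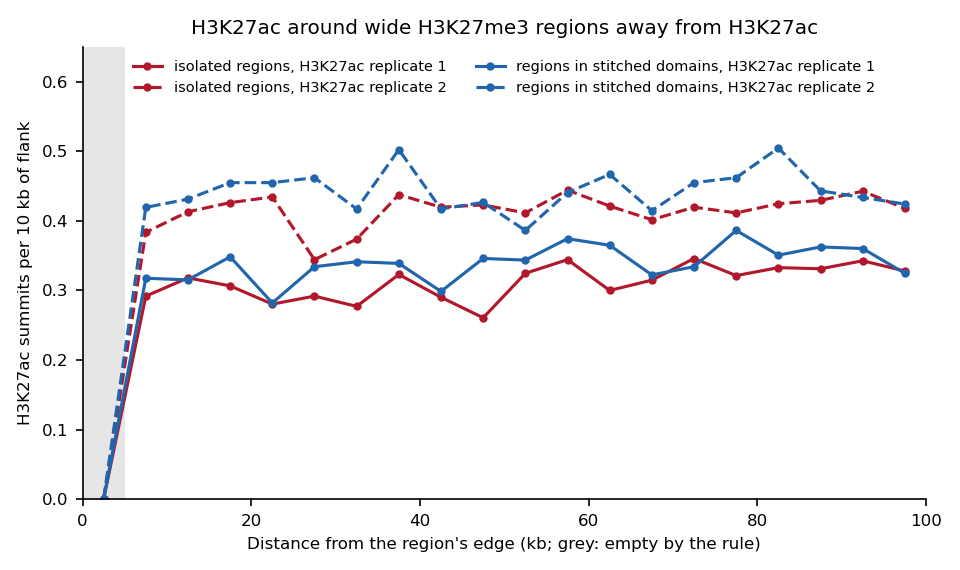
H3K27ac summits per 10 kb of flank (vertical axis) by distance from the region's edge (kb, in steps of 5 kb) around the 610 isolated and 422 stitched wide H3K27me3 regions away from H3K27ac, for H3K27ac replicates 1 (solid) and 2 (dashed). The grey band is empty because the rule demands it. Beyond it the lines of isolated regions lie between 0.261 and 0.346 in replicate 1 and between 0.344 and 0.444 in replicate 2. Replicate 2 lies above replicate 1, at 0.415 against 0.312 on average around isolated regions.

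The H3K27ac regions next to members had a low density of their own mark, as did those next to the other H3K27me3 regions away from H3K27ac. The nearest region had a median H3K27ac density of 2.16 in replicate 1 and 1.83 in replicate 2, against 2.95 and 2.73 for the nearest H3K27ac region of all H3K27me3 regions. The medians were 2.33 and 2.18 next to stitched regions away from H3K27ac, and 2.26 and 2.00 next to narrow isolated ones. Part of the difference from all H3K27me3 regions may be built in. The 10-kb window of an H3K27ac region just beyond the limit reaches into the stretch that the rule empties of H3K27ac. Within 50 kb of a member there were on average 2.67 and 3.67 H3K27ac regions, which is 59.4 and 62.9% of the mean over all H3K27me3 regions in replicates 1 and 2. For the stitched regions away from H3K27ac it was 65.5 and 68.5%, and for the 2611 narrow isolated regions away from H3K27ac it was 64.5 and 66.4%. Part of this shortfall is fixed by the rule, which empties the 5 kb on each side in all 3 groups. The members were lower than both other groups in each replicate, and no test was made.

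Regions lay close to each limit of the rule on both sides, with the lowest counts at the gap to H3K27me3. There were 86 members of 800 to 900 bp and 114 regions of 700 to 800 bp that met the other conditions. At the gap to H3K27me3 there were 14 members at 3 to 4 kb and 31 wide regions at 2 to 3 kb, and at the distance to H3K27ac 65 members at 5 to 6 kb and 72 regions at 4 to 5 kb. Just inside the width lay regions of 801 bp on chromosomes 11, 12 and 17, with pileups of 12, 17 and 29 tags, and just outside lay regions of 799, 798 and 797 bp on chromosomes 7, 14 and 7, with 10, 34 and 11 tags. The members with the shortest gaps to H3K27me3 had 3134, 3148 and 3161 bp, on chromosomes 5, 14 and 21, with densities of 169, 17.5 and 113. The wide regions just outside had 2977, 2968 and 2913 bp, on chromosomes 2, 7 and 14, with densities of 29.0, 18.9 and 23.0. At the limit for H3K27ac the nearest members were at 5001, 5040 and 5050 bp, and the nearest regions left out were at 4996, 4986 and 4982 bp; each of these 3 was left out through replicate 2 alone, with replicate 1 more than 10 kb away.

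Members lay on all 25 chromosomes, 603 in all, and 7 more were on unplaced sequences. They numbered 0.205 to 0.671 per Mb, with a median of 0.460. The highest count was 40 on chromosome 1, which is 4.99% of its H3K27me3 regions (exact 95% interval 3.59 to 6.73%), and the lowest was 10 on chromosome 22, or 2.49% (exact 95% interval 1.20 to 4.54%); these intervals overlap, and both ends were picked out of 25 chromosomes. Chromosome 4 was the poorest per Mb with 16 members. They were 3.31% of its 484 H3K27me3 regions (exact 95% interval 1.90 to 5.31%), close to the 3.56% over all H3K27me3 regions. Of these members 2 lay beyond 30 Mb, on its repeat-rich long arm, where 64 H3K27me3 regions were called, 9 of them wide. In the outermost 1 Mb of the chromosomes lay 25 members (4.15%, exact 95% interval 2.70 to 6.06%), against 5.09% of all H3K27me3 regions.

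The median distance to the nearest other member was 688 kb, and 78 members (12.8%) had another within 100 kb and 369 (60.5%) within 1000 kb. The most in 1 Mb was 6, at 2 places picked for this count. The stretch on chromosome 16 held 19 H3K27me3 regions, 11 of them wide, and that on chromosome 6 held 25, 7 of them wide. Over all H3K27me3 regions 3.56% were members. The members on chromosome 16 from 26284008 to 27181589 had densities of 4.32 to 121 and included the region of 3309 bp described above. Those on chromosome 6 from 39487474 to 40355894 had densities of 7.13 to 35.0. There were 29 and 41 H3K27ac regions in replicates 1 and 2 within the chromosome 16 stretch and 35 and 45 within that on chromosome 6. No genome-wide rate was set beside these counts. Within 50 kb of each chromosome 16 member lay 1 to 3 H3K27ac regions in replicate 1 and 1 to 6 in replicate 2. The means over all members were 2.67 and 3.67.

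Within the first 5 Mb of chromosome 9, the densest H3K27me3 region had its summit at position 2005873 and a density of 265, against 413 in the densest region of the whole list. Of the 61 H3K27me3 regions within 1 Mb of it, 9 were wide and 2 were members, against 18.1% and 3.56% of all H3K27me3 regions. The first, from 1505443 to 1506391, measured 949 bp and had a density of 11.4, and its nearest H3K27ac region was 5050 bp away in replicate 1 and 5114 bp in replicate 2. The second, from 2089366 to 2090488, measured 1123 bp, had 2 summits of 45 tags each and a density of 18.4, and lay 13402 and 13367 bp from H3K27ac.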

How the data were processed

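The 3 peak lists analysed here each come from 1 CUT&RUN library. Per the submitters' processing notes, the peak caller was among these tools, listed without roles: MACS2 2.2.7.1, Bowtie2 2.4.5, cutadapt 4.1, bedtools 2.30.0, SAMtools 1.16.1 and Picard 3.0.0, on build danRer11, with settings not given in the sources used here. For each peak, the authors' deposited lists hold a fold, which is a ratio over the local background, the -log10 of its p-value and q-value, and a score. The score is 10 times the -log10 q without decimals and was not used further.

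Lines whose intervals touched were merged into regions, which keep the highest value of each measure; the summit share is that of the summit with the highest -log10 q. Gaps are counted from edge to edge. Pileup and background were recovered as the whole-number pileup whose fold, (pileup + 1) / (background + 1), and Poisson p-value both match the deposited values, within 0.001 on the -log10 scale for every line. The 0.02 steps of the background were read as tags of 200 bp in a 10-kb window; this reading comes from the values, not the labels. It gave whole tags, within 0.05, for 99.9% of H3K27me3 lines above the genome-wide background. The code was tested on simulated lines and planted regions.

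With 1 H3K27me3 library no test across samples could be made, so groups are described by medians, quartiles and shares with exact Clopper-Pearson 95% intervals, with order-statistic 95% intervals for medians; both treat neighbouring regions as independent. Nothing in the labels tells whether embryos of different clutches made up the H3K27ac replicates, so their spread may be technical. No control library was used here. The members and comparisons were chosen with earlier results of these data known. Regions named are the 10 widest, densest and highest by -log10 q, those nearest each limit, the 1 Mb with most members and the widest stitched regions; the 2 members on chromosome 9 were added after their values were seen. Computations used scipy 1.17.1, pandas 2.3.3 and numpy 2.4.6 under Python 3.11.15, and plots matplotlib 3.10.9.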

Additional observations from a re-analysis of the deposited data

Results flagged for a closer look

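The mitochondrial genome, which carries no histones and was left out by the rule, held 3 H3K27me3 regions of at least 800 bp, the widest 1435 bp, with the authors' fold reaching 2.99. In H3K27ac replicates 1 and 2 its widest regions measured 749 and 626 bp.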

How the results depend on the processing

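The count and shares moved with the distance to H3K27ac and with the H3K27ac list, and the medians of signal moved mainly with the width. Leaving out 1 H3K27ac replicate gave 807 to 969 members, shares away from H3K27ac of 44.3 to 53.2% (isolated) and 43.9 to 51.2% (stitched), and a median distance of 13410 to 16888 bp. With H3K27ac found in both replicates these were 1260, 69.2%, 68.1% and 27290 bp. With a -log10 q of at least 5 in all lists, which leaves fewer regions of each mark, they were 1488, 72.3%, 73.9% and 30441 bp, with a density of 12.0 and a -log10 q of 12.6. Distances to H3K27ac of 1, 10 and 20 kb gave 1026, 359 and 139 members, 56.3, 19.7 and 7.63% of isolated and 64.1, 19.2 and 8.18% of stitched regions, and median distances of 6637, 16452 and 29521 bp; at 1 kb the median density was 11.7 and the summit share 13.9%, and at 20 kb the -log10 q was 10.5. The 1-kb setting is the only one of 14 in which the intervals of the isolated and stitched shares did not overlap.

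A minimum width of 600 bp gave a density of 8.43, a -log10 q of 9.27, a summit share of 15% and 2 summits. At 1000 bp the share away from H3K27ac was 35.8%, the density 12.8, the -log10 q 13.6 and the summit share 13.8%. Isolation by 1 kb gave a density of 12.4 and a summit share of 13.5%, and by 10 kb 9.62 and 15.0%. Closing H3K27me3 gaps of at most 200 bp, chosen after seeing the data, gave a -log10 q of 10.6. The other 67 of 112 recomputed values stayed within the main interval, or within 1.5 times for counts; merging only overlapping lines changed none, and chromosome 4 and unplaced sequences decided none. The cause of these shifts was not tested beyond the settings' own construction. No paired analysis was possible because the H3K27me3 and H3K27ac libraries share only replicate number 1; isolated and stitched regions were instead set side by side within each H3K27ac replicate. The shallow H3K27me3 library and its lack of a replicate limit every value.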
